A study of Homo sapiens with 22 samples.

Results

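A set of 8 regulators of the Müllerian tract and of hormone response was examined in AN3CA cells, an established human endometrial carcinoma line: PAX8, SOX17, ESR1, PGR, FOXO1, EMX2, WT1 and MSX1. Every deposited peak with at least 1 base within 100 kb of the hg19 transcription start given for each gene was taken. This rule kept 93 of the 508791 peaks of 22 libraries, of which 90 came from the SMARCA4, SMARCC1 and H3K27ac libraries and 3 from an HA library. PAX8 held 52 of the 93 peaks, MSX1 18, EMX2 11, FOXO1 7, WT1 3, and ESR1 and PGR 1 each. SOX17 held none.

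The Müllerian ducts give rise to the oviduct, the uterus and the upper vagina, and PAX8, SOX17, EMX2 and WT1 are transcription factors used there during development or in the adult epithelium and stroma. ESR1 and PGR encode the oestrogen and progesterone receptors, FOXO1 is a forkhead factor that works beside the progesterone receptor when endometrial stroma decidualises, and MSX1 is a homeobox factor of the uterine epithelium around implantation. BAF complexes remodel nucleosomes with the ATPase SMARCA4 around a core that holds SMARCC1, while ARID1A joins a class of them. H3K27ac, acetylation of lysine 27 of histone H3, marks active enhancers and promoters.

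CUT&Tag was used throughout: an antibody guides a transposase to its target, and the DNA cut there is sequenced. Cells carried an empty vector (Empty, 2 replicates for each antibody) or a form of ARID1A (1 library for each antibody): wild type (WT), DBDmut, labelled an ARID domain mutant, delIDR1 and CBR, both labelled truncation mutants, or DDX4, labelled an IDR hybrid mutant. The HA library was from DDX4 cells. All groups share the AN3CA background, and the labels give neither the state of the cells' own ARID1A nor how many clones or cultures each library came from. Permutation p-values below therefore measure only the spread between these libraries, and a construct with 1 library has no replicate check. The labelled cell type could not be checked against transcripts, because RNA was not analysed here.

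The lists held 5567 to 15207 SMARCA4 peaks, 9685 to 23855 SMARCC1 peaks and 31745 to 92057 H3K27ac peaks. Depth, estimated from the peaks' own background, was 3.59 to 14.5 fragments per kb for H3K27ac, 0.913 to 1.94 for SMARCA4 and 1.32 to 3.29 for SMARCC1. Empty replicate 2 was the deepest H3K27ac library and held the longest list, while Empty replicate 1 and WT were close in depth at 4.40 and 4.49. Date-like stamps in the peak names, which the labels do not explain, were shared by Empty replicate 1, WT, DBDmut, delIDR1 and CBR, whereas Empty replicate 2 and DDX4 each had a stamp of their own. DDX4 and its stamp cannot be told apart. The fold enrichment of a peak and its rank by q-value are the authors' own values and belong to the peak's own list. Folds of different lists are given side by side as descriptions, not as levels to compare, since background and depth differ between lists. A missing peak means that none was called at that depth.

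The promoters of MSX1 and PAX8 are shown because of their H3K27ac peaks. MSX1 was the only one of the 8 starts with H3K27ac at the start itself. The PAX8 window held the most H3K27ac peaks over all libraries together, 39 against 16 for MSX1, but its start had no peak within 1 kb. The 250 bases upstream of each start are from RefSeq on GRCh38.p14, at chr4:4859415-4859664 on the plus strand for MSX1 and chr2:113278922-113279171 on the minus strand for PAX8. Both are written 5′ to 3′ with CpG dinucleotides in capitals. Peak positions in hg19 were not converted to that build.
MSX1: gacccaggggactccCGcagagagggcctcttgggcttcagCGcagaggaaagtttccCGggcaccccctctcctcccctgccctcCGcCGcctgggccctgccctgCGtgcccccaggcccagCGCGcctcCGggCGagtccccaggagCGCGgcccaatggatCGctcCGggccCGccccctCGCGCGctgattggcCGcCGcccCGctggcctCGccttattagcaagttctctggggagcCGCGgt
PAX8: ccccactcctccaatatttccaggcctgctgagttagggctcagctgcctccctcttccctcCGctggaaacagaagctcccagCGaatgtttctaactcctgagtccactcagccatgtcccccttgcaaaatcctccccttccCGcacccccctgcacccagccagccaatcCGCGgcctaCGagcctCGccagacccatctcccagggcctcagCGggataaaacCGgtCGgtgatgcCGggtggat
The MSX1 stretch held 24 CpG dinucleotides and had a GC content of 74.0%, against medians of 11 CpG and 58.0% over 35114 RefSeq promoter entries cut to the same length. PAX8 was at the median with 11 CpG and a GC content of 61.6%. Of the entries, 78.4% had as few CpG as MSX1 or fewer.

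These 4 motifs were searched on both strands of these 250 bases: the CCAAT box (CCAAT), the GC box (GGGCGG), the AP-1 motif (TGANTCA) and the TATA box (TATAAA). Matches could overlap one another. CCAAT was found in 32.0% of all entries, GGGCGG in 42.6%, TGANTCA in 6.57% and TATAAA in 10.7%. MSX1 held 2 CCAAT and 2 GGGCGG matches and PAX8 held 2 CCAAT matches, with no match to the other motifs in either. Of the 8 members, 7 were in the promoter table, and FOXO1 had 27 CpG dinucleotides and EMX2 20 in the same stretch. The entries of WT1, PGR and ESR1 had at most 19, 12 and 11. Neither FOXO1 nor EMX2 had H3K27ac within 1 kb of its start in any library. Whether CpG content is related to H3K27ac at the start was not tested.

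Counts over the 8 windows of 200 kb were low for the BAF subunits and uneven for H3K27ac. SMARCA4 peaks numbered 0 in Empty replicate 1, 1 in Empty replicate 2, 3 in WT, 1 in DBDmut and 2 in CBR, with 0 in delIDR1 and DDX4. SMARCC1 peaks numbered 1 in each Empty replicate, 6 in WT, 2 in delIDR1 and 2 in CBR, with 0 in DBDmut and DDX4. WT had the highest count of both subunits, and DDX4 had no subunit peak in any window. H3K27ac peaks numbered 2 in Empty replicate 1, 38 in Empty replicate 2, 10 in WT, 5 with DBDmut, 8 with delIDR1, 7 with CBR and 1 with DDX4. The Empty replicates lay far apart, and of the constructs DDX4 alone fell outside their H3K27ac range.

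WT and the mutants, 1 library each, were pooled as 1 group of 5 constructs. None of the 3 antibodies separated this pooled group from Empty. Its SD includes differences between the proteins, so an effect of WT or of any other single construct could not be seen in this test. The test was an exact, two-sided permutation of labels, whose 21 arrangements cannot give a p below 0.0476. The mean number of SMARCA4 peaks was 1.20 ± 1.30 (SD, n = 5) with constructs and 0.50 ± 0.707 (SD, n = 2) in Empty (exact p = 0.810, 0.810 when the 3 antibodies were adjusted for by Benjamini-Hochberg). SMARCC1 gave 2.0 ± 2.45 (SD, n = 5) and 1.0 ± 0.0 (SD, n = 2; exact p = 0.762, adjusted 0.810). For H3K27ac it was 6.2 ± 3.42 (SD, n = 5) and 20.0 ± 25.5 (SD, n = 2; exact p = 0.238, adjusted 0.714). The direction for H3K27ac rested on Empty replicate 2: the difference of constructs minus Empty was -13.8 peaks with it and 4.2 without it. Among the libraries that share the stamp of Empty replicate 1 the 4 constructs had 7.5 ± 2.08 H3K27ac peaks and Empty had 2 (exact permutation p = 0.2, the smallest that 5 labelings allow). There the difference was 1.5 peaks for each subunit (exact p = 0.6 for both).

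**Figure D1:**
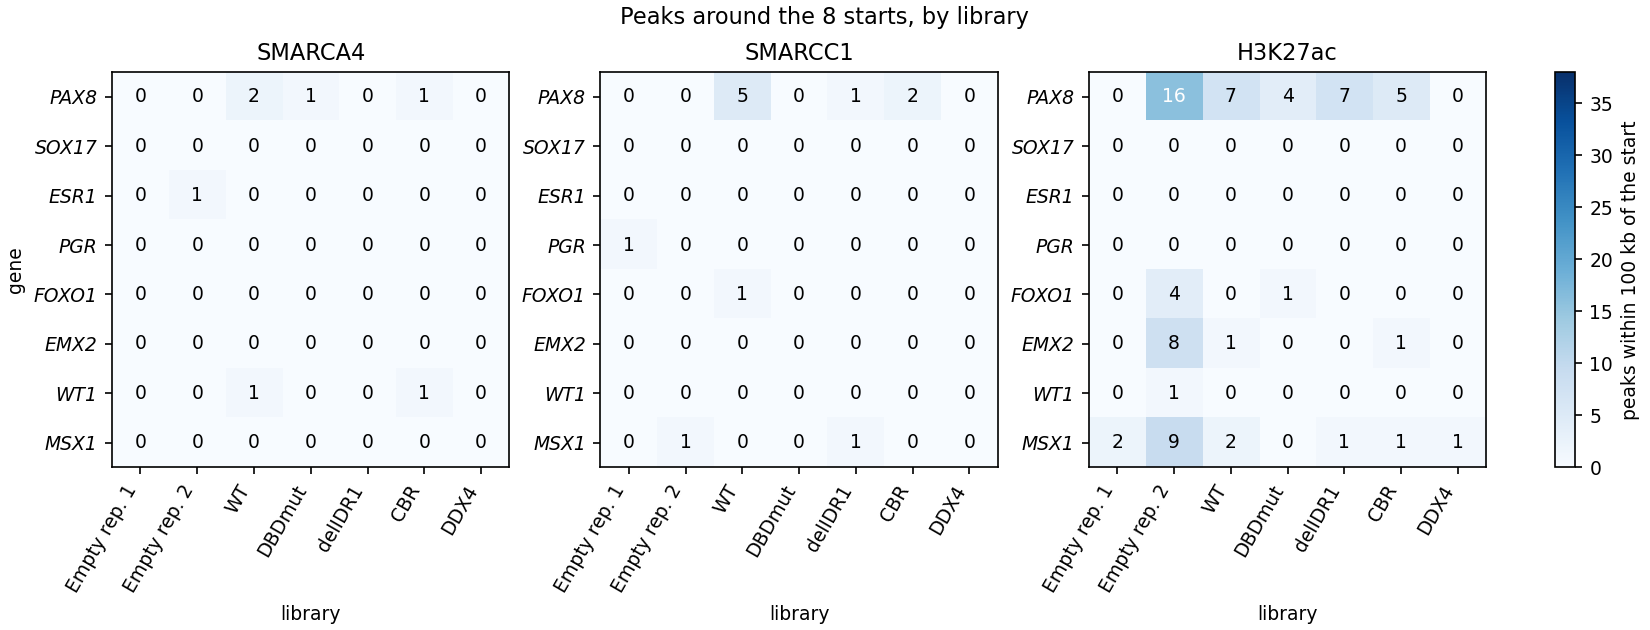
Number of peaks with at least 1 base within 100 kb of each start (8 genes, vertical axis) in each of 7 libraries (horizontal axis), 1 panel per antibody, with the number printed in each cell. PAX8 has peaks of all 3 antibodies, its H3K27ac count runs from 0 to 16, and SOX17 is at 0 throughout.

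Occupancy of the windows was set beside that of tiles over the genome. Of the 8 windows, 2 held a SMARCA4 peak in WT and 2 a SMARCC1 peak, where 39.4% and 52.5% of 15188 tiles of 200 kb did. H3K27ac was called in 3 windows in WT, 1 in Empty replicate 1 and 5 in Empty replicate 2, against 54.3%, 44.4% and 58.9% of tiles. The mean number of H3K27ac peaks was 1.25 per window and 3.35 per tile in WT, 0.25 and 2.39 in Empty replicate 1, and 4.75 and 6.06 in Empty replicate 2. The median in Empty replicate 2 was 2.5 per window and 2 per tile, so means and medians differed in order there. With 8 windows and no test, nothing is read from these shares. The tiles cover each chromosome, gaps included, and are not centred on genes.

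Peaks of the 3 antibodies that shared a base were joined into 55 elements. Of these, 44 were seen in 1 library only, 31 of them in Empty replicate 2, and 6 in WT. H3K27ac was present at 48 elements and a BAF subunit at 13. H3K27ac recurred in at least 4 libraries at 3 elements, 2 at PAX8 and 1 at MSX1, and those are described in detail below. In Empty replicate 2, the 38 H3K27ac peaks had a median fold of 3.74, beside 4.16 over its whole list. In WT the 10 window peaks had a median fold of 7.16, beside 5.81 over the whole list. The median of the window peaks thus lay under the median of the whole list in Empty replicate 2 and above it in WT, with single peaks on either side.

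PAX8, a paired-box factor used as a lineage marker of Müllerian epithelium, starts at position 114036498 of chromosome 2 on the minus strand. Its window held 24 of the 55 elements and was the only one in which SMARCA4, SMARCC1 and H3K27ac met. The next protein-coding gene downstream by order in RefSeq is PSD4. Whether the downstream elements belong to PAX8 or to PSD4 was not tested. SMARCA4 was called at 2 sites in WT, 1 in DBDmut and 1 in CBR, and at 0 in both Empty replicates, delIDR1 and DDX4. SMARCC1 was called at 5 sites in WT, 2 in CBR and 1 in delIDR1, and at 0 in both Empty replicates, DBDmut and DDX4. H3K27ac peaks numbered 0 in Empty replicate 1, 16 in Empty replicate 2, 7 in WT, 4 with DBDmut, 7 with delIDR1, 5 with CBR and 0 with DDX4. No subunit peak was called in either Empty replicate, while the acetylation counts of WT and the mutants lay between the Empty replicates. DDX4 had none of the 3.

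Equal list lengths changed the order. When each H3K27ac list was limited to its 31745 peaks of lowest q, the PAX8 window held 0 peaks in Empty replicate 1, 1 in Empty replicate 2, 6 in WT, 2 with DBDmut, 7 with delIDR1, 3 with CBR and 0 with DDX4. Of the 16 peaks in Empty replicate 2, 1 was thus among its strongest, while 6 of 7 remained in WT. The delIDR1 list set the common length, so its 7 peaks could not change. In the whole lists the PAX8 H3K27ac peaks of Empty replicate 2 had a median fold of 3.66 (4.16 over its list) and those of WT 8.11 (5.81 over its list). Under equal lengths, DBDmut, delIDR1, CBR and WT all had more peaks there than either Empty replicate, and DDX4 had as many as Empty replicate 1.

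**Figure D2:**
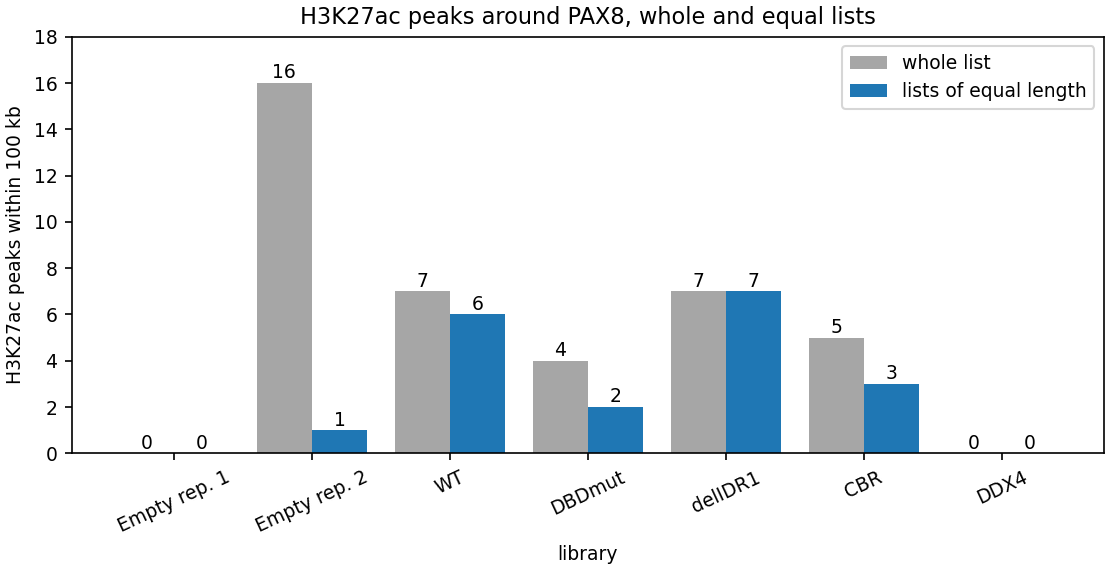
H3K27ac peaks within 100 kb of the PAX8 start (vertical axis, number of peaks) in 7 libraries (horizontal axis), from the whole lists (grey bars) and from lists limited to an equal length (blue bars), with counts above the bars. Empty replicate 2 goes from 16 to 1 and WT from 7 to 6.

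Each WT count at PAX8, taken alone, was reached or passed in 10.1 to 20.9% of tiles. At least 7 WT H3K27ac peaks were found in 19.6% of tiles, at least 5 WT SMARCC1 peaks in 10.1% and at least 2 WT SMARCA4 peaks in 20.9%. The thresholds are the PAX8 values themselves, so these shares carry no test. Tiles that reach these counts together, or that have subunit peaks in WT and none in Empty, were not counted.

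**Figure D3:**
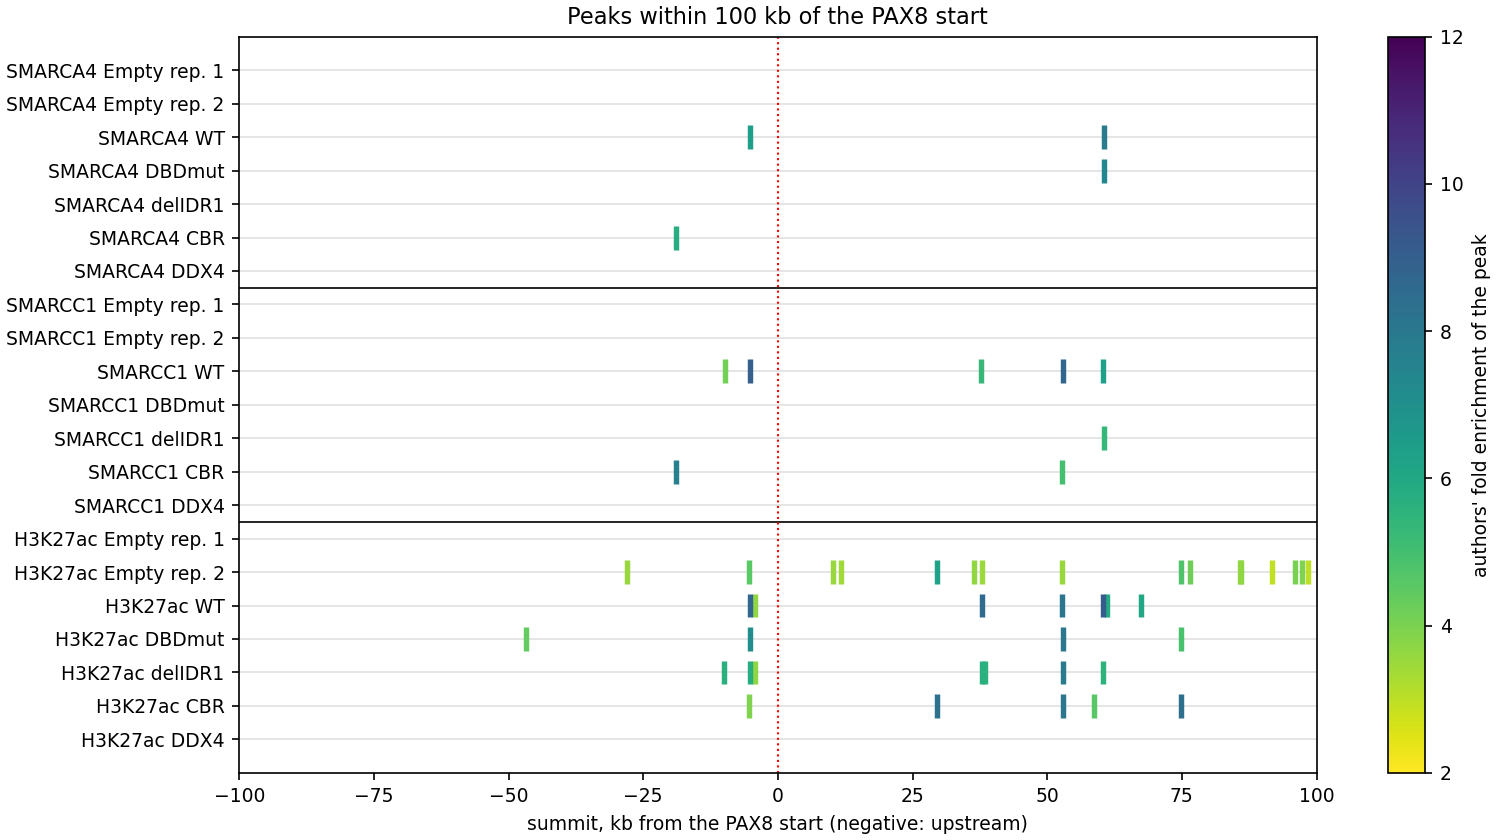
Peak summits within 100 kb of the PAX8 start in 21 libraries (rows, by antibody), by distance in kb in the direction of transcription (horizontal axis, negative upstream) and coloured by the authors' fold enrichment. The WT rows of all 3 antibodies share the sites 5.1 kb upstream and near 60.4 kb downstream, and no row has a peak at the start.

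The element nearest to the PAX8 start with both subunits lay 4.8 to 5.8 kb upstream (hg19 chromosome 2, positions 114041316 to 114042335). SMARCA4 was called there in WT alone, with a fold of 6.44 and a summit pileup of 12 fragments. SMARCC1 was likewise called in WT alone, with a fold of 9.03, a pileup of 40 and rank 1994 of 23855. No mutant and neither Empty replicate had a subunit peak at this element.

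Acetylation at the same upstream element was called in 5 of 7 libraries. The summit pileup was 64 fragments in WT, 29 in delIDR1, 21 in DBDmut, 16 in Empty replicate 2 and 6 in CBR, and no peak was called in Empty replicate 1 or DDX4. WT had the highest pileup although Empty replicate 2 was the deeper library. Within their lists the peak ranked 4465 of 50885 in WT, 12002 of 31745 in delIDR1, 16378 of 39160 in DBDmut, 49360 of 92057 in Empty replicate 2 and 40578 of 41032 in CBR, with folds of 8.73, 5.77, 7.12, 4.57 and 3.92. Empty replicate 2, DBDmut, delIDR1 and CBR thus had an H3K27ac peak at a site without a called subunit.

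The other BAF site of WT lay 60.3 to 60.6 kb downstream of the start (positions 113975898 to 113976176). WT had peaks of SMARCA4 (fold 7.85), SMARCC1 (6.37) and H3K27ac (9.14) there. DBDmut had SMARCA4 alone, with a fold of 7.43 and a pileup of 8 fragments, and delIDR1 had SMARCC1 (fold 5.32, pileup 6) with H3K27ac (fold 5.59). Empty, CBR and DDX4 had no peak of the 3 antibodies at this element. So 2 mutants showed 1 subunit each, and H3K27ac was called in the libraries that had SMARCC1.

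Counted as BAF sites, both WT sites at PAX8 were absent from both Empty replicates (2 of 2, Wilson 95% interval 34.2 to 100%), against 45.0% of all 9743 WT BAF sites. With lists of equal length no WT BAF site was left in the windows, and an overlap of 50% left 1. A mutant kept a site when both of its subunits overlapped it, and each of the 4 mutants kept 0 of 2 (upper limit 65.8%). Over all 4383 gained sites, DBDmut kept 35.5%, delIDR1 14.0%, CBR 5.50% and DDX4 0.479%. With 2 sites, the intervals include each of these genome shares, so a difference from the genome was not detectable. Intervals here cover counting error only.

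WT H3K27ac peaks in the windows were absent from both Empty replicates at 6 of 10 (Wilson 95% interval 31.3 to 83.2%), against 40.0% of all WT H3K27ac peaks. Of these 6, 4 were at PAX8 and 1 each at EMX2 and MSX1. Windows of 50 kb gave 2 and windows of 200 kb gave 14. Against Empty replicate 1 alone, 9 of 10 were absent (genome 57.8%), among them 7 of 7 at PAX8. Empty replicate 2 in turn had 36 of 38 window peaks that Empty replicate 1 lacked, with 75.3% over the genome. A call of gain at these genes therefore depended on which Empty replicate was the comparison.

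Among the mutants, delIDR1 had an H3K27ac peak at 2 of the 6 gained WT sites (33.3%, Wilson 95% interval 9.68 to 70.0%), against 33.1% over the genome. DBDmut, CBR and DDX4 each had 0 of 6 (upper limit 39.0%), where the genome shares were 41.2%, 7.70% and 7.50%. The DBDmut share was 28.6% (2 of 7) with lists of equal length, 21.4% (3 of 14) with windows of 200 kb and 12.5% (1 of 8) with peaks of -log10 q of at least 5, so no difference from the genome is read from 0 of 6. Against Empty replicate 1 alone the WT peaks numbered 9, of which DBDmut had 22.2%, delIDR1 55.6%, CBR 22.2% and DDX4 0.0% (upper limit 29.9%). The genome shares under that definition were 42.4% (DBDmut), 34.1% (delIDR1), 19.1% (CBR) and 20.6% (DDX4), and the Wilson 95% interval of each of the 4 held its genome share.

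Another 3 PAX8 elements, grouped after their values were seen, carried H3K27ac in both WT and delIDR1. At 52.7 to 53.5 kb downstream the folds were 8.11 in WT, 8.02 with DBDmut, 7.86 with delIDR1, 8.05 with CBR and 3.54 in Empty replicate 2, and SMARCC1 was called in WT (8.73) and CBR (4.99). This element was called in WT and 3 of the 4 mutants. At 37.7 to 38.6 kb downstream H3K27ac was called in WT (fold 8.59), delIDR1 (2 peaks, 5.59 and 5.67) and Empty replicate 2 (3.51), with SMARCC1 in WT (5.29). At 4.1 to 4.6 kb upstream, next to the upstream BAF site, WT and delIDR1 had H3K27ac at folds of 3.65 each. The sharing by WT and delIDR1 follows from this grouping and is not a result. The element 74.6 to 74.9 kb downstream had H3K27ac in 3 libraries, WT and delIDR1 not among them.

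Some PAX8 elements were acetylated or bound outside WT. CBR alone had both subunits 18.8 to 19.0 kb upstream, with a SMARCA4 fold of 5.76 and a SMARCC1 fold of 7.68, and no library had H3K27ac there. CBR and Empty replicate 2 shared H3K27ac 29.5 to 29.8 kb downstream (folds 8.23 and 6.23). At 74.6 to 74.9 kb downstream CBR (8.39), DBDmut (4.89) and Empty replicate 2 (4.78) had H3K27ac and WT had none. At 9.7 to 10.1 kb upstream WT had SMARCC1 (4.13) and delIDR1 H3K27ac (5.67). WT alone had H3K27ac at 67.4 kb (6.05) and 61.1 kb (5.87) downstream, CBR alone at 58.7 kb downstream (4.60), and DBDmut alone at 46.7 kb upstream (4.41). These sites rest on 1 to 3 libraries each and were not tested.

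EMX2, a homeobox factor needed for urogenital tract formation, starts at position 119301955 of chromosome 10 and had acetylation but no subunit peak in its window. H3K27ac was called 0 times in Empty replicate 1, 8 in Empty replicate 2, 1 in WT and 1 in CBR, and not in the other constructs. The WT peak lay 80.5 kb upstream (positions 119221327 to 119221715), with a fold of 9.88, a pileup of 30 fragments and rank 10781 of 50885, the highest fold among the 10 WT window peaks. It was absent from the other 6 libraries, the deepest included. CBR and Empty replicate 2 shared a peak 99.4 kb upstream with folds of 9.06 and 8.15. Empty replicate 2 alone had a peak near the start, 1.43 kb downstream, with a fold of 3.58 and rank 70347 of 92057.

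WT1, a zinc-finger factor of the urogenital ridge and of uterine stroma, starts at position 32457081 of chromosome 11 on the minus strand and held 3 peaks. WT had SMARCA4 42.9 kb upstream (fold 4.08, pileup 4) and CBR had SMARCA4 28.8 kb upstream (fold 3.61, pileup 3). Empty replicate 2 had H3K27ac 61.1 kb downstream (fold 5.30). The SMARCA4 peaks lay at different sites, rested on a few fragments and had no SMARCC1 beside them.

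SOX17, an HMG-box factor of endometrial and oviduct epithelium, had no peak of any of the 22 lists within 100 kb. The nearest H3K27ac summit was 304.3, 309.2 and 323.2 kb away at the lowest, the median and the highest of 7 libraries. Within 1 Mb there were 20 to 56 H3K27ac peaks, so the wider region did hold acetylation.

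MSX1 starts at position 4861392 of chromosome 4 and was the only member with H3K27ac within 1 kb of its start. The element reached 0.4 kb to either side of the start (positions 4861004 to 4861770). Its summit pileup was 12 fragments in Empty replicate 1, 62 in Empty replicate 2, 9 in WT, 10 with delIDR1, 21 with CBR and 24 with DDX4, and DBDmut had no peak. The folds were 6.48, 11.1, 4.72, 5.53, 9.52 and 10.1 in the same order. The peak was thus called in both Empty replicates and in 4 of 5 constructs, and in WT it ranked 43533 of 50885, among the weaker ones.

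DBDmut had no peak of the 3 antibodies in the MSX1 window, and its nearest H3K27ac summit was 178.4 kb away. Of 19885 WT H3K27ac peaks that both Empty replicates also had, 12.3% were absent from DBDmut, and the start of MSX1 was 1 of 1 such peaks in the windows. SMARCC1 was called at the MSX1 start in Empty replicate 2 alone (fold 8.46, pileup 14), and no library had SMARCA4 there. WT alone had another H3K27ac peak 1.4 kb downstream, with a fold of 6.22. delIDR1 alone had SMARCC1 87.2 kb upstream, with a fold of 7.32.

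A further H3K27ac element of MSX1 was shared by the Empty replicates and by no construct. It lay 80.7 to 81.1 kb upstream, with folds of 5.59 in Empty replicate 1 and 4.10 in Empty replicate 2 and pileups of 7 and 14. In the windows, 1 of 2 H3K27ac peaks shared by both Empty replicates was absent from WT (Wilson 95% interval 9.45 to 90.6%), against 20.2% over the genome. Without Empty replicate 1 no sharing was asked for, and 34 of the 38 window peaks of Empty replicate 2 were absent from WT. The remaining 7 H3K27ac peaks of the MSX1 window were in Empty replicate 2 alone.

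**Figure D4:**
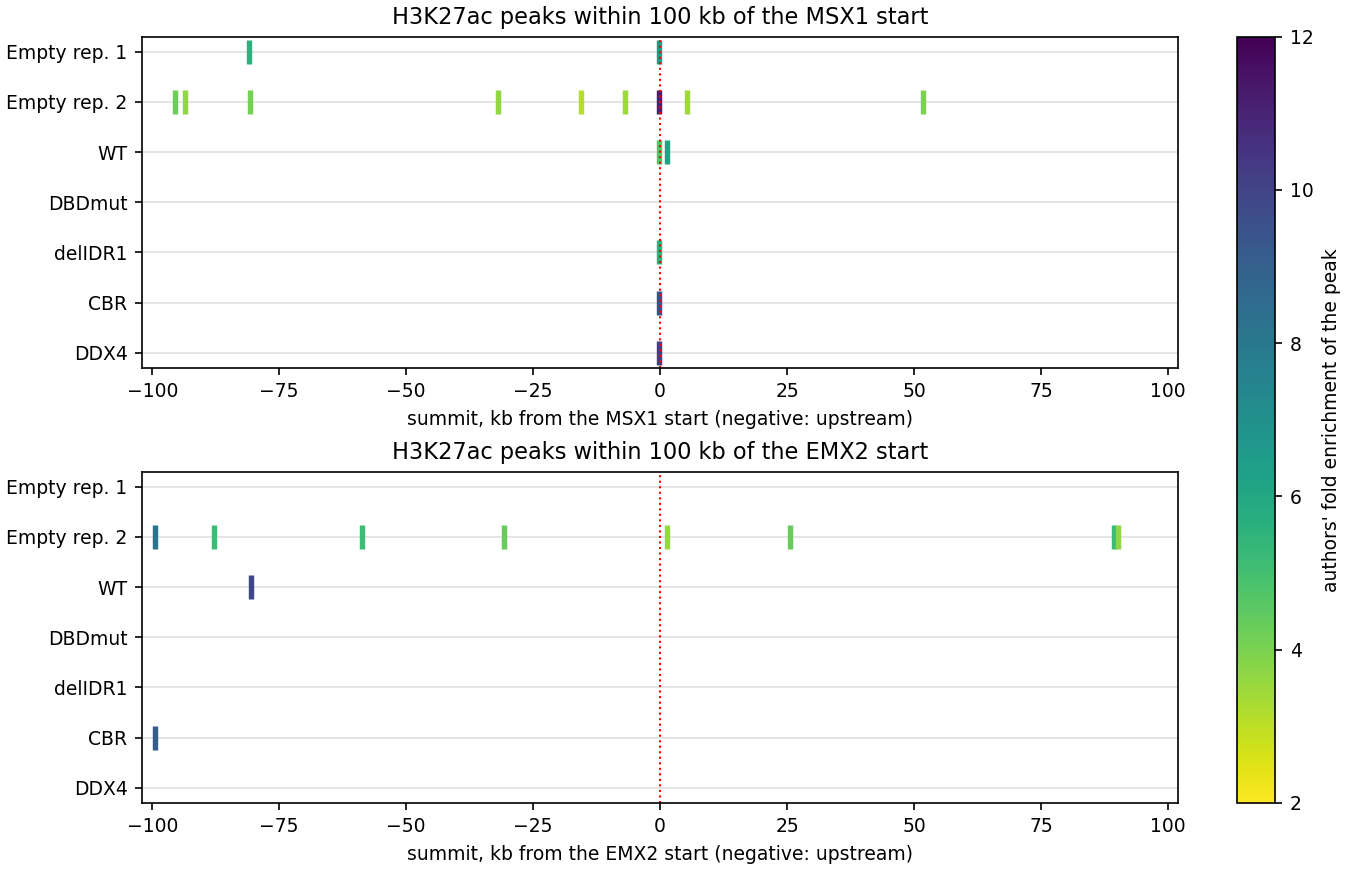
H3K27ac peak summits within 100 kb of the MSX1 start (upper panel) and the EMX2 start (lower panel) in 7 libraries (rows), by distance in kb in the direction of transcription (horizontal axis, negative upstream) and coloured by the authors' fold enrichment. At MSX1 a peak sits at the start in every library but DBDmut, and at EMX2 WT has 1 peak, 80.5 kb upstream.

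The hormone receptors had no H3K27ac peak within 100 kb in any library. ESR1, the oestrogen receptor, starts at position 152011631 of chromosome 6 and had 1 peak, SMARCA4 in Empty replicate 2 at 98.4 kb downstream (fold 5.64, pileup 7). Its nearest H3K27ac summit was 136.6, 138.9, 166.2 and 166.2 kb away in Empty replicate 1, Empty replicate 2, DBDmut and delIDR1, 191.7 kb in WT, 221.5 kb in CBR and 238.2 kb in DDX4, always upstream. No H3K27ac peak was called from the start to 200 kb downstream. The 6 ESR1 start entries of RefSeq span 152.4 kb. They were not placed on hg19, so which of them lie in that stretch is not known here.

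PGR, the progesterone receptor and a target of ESR1 in the endometrium, starts at position 101000544 of chromosome 11 on the minus strand. It had 1 peak, SMARCC1 in Empty replicate 1 at 21.7 kb upstream (fold 6.50, pileup 7). The nearest H3K27ac summit lay 252.9 kb away in WT, 340.3 and 441.9 kb in the Empty replicates, 785.5 kb in DDX4 and 980.5 to 982.3 kb in CBR, DBDmut and delIDR1. With 2 to 6 H3K27ac peaks per library within 1 Mb, PGR lay in the region poorest in acetylation of the 8. The isolated subunit peaks of ESR1 and PGR were each in 1 of the Empty replicates and in no construct.

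FOXO1 starts at position 41240734 of chromosome 13 on the minus strand and had H3K27ac within 100 kb in Empty replicate 2 (4 peaks) and DBDmut (1 peak). The DBDmut peak lay 51.8 kb upstream, with a fold of 4.41 and a pileup of 7, and met no peak of Empty replicate 2. WT had SMARCC1 76.8 kb downstream (fold 4.15, pileup 5) with no SMARCA4. No element of the FOXO1 window was seen in more than 1 library.

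**Figure D5:**
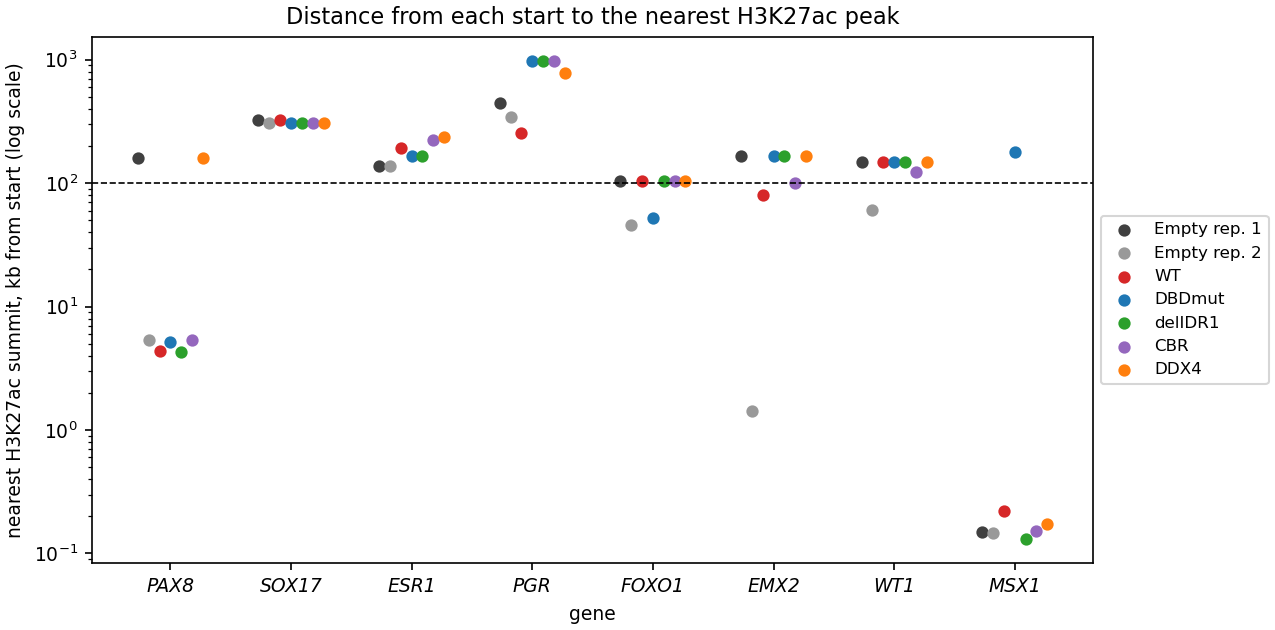
Distance from each of the 8 starts (horizontal axis) to the nearest H3K27ac summit in kb (vertical axis, log scale) in 7 libraries, 1 coloured point each. The dashed line is the 100 kb limit. MSX1 lies at 0.131 to 0.219 kb except in DBDmut, PAX8 at 4.26 to 5.40 kb except in Empty replicate 1 and DDX4, and SOX17, ESR1 and PGR above 100 kb throughout.

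Ordered by the median distance to H3K27ac over 7 libraries, MSX1 came first at 0.153 kb, then PAX8 at 5.33 kb, FOXO1 at 104.7 kb, WT1 at 148.1 kb, ESR1 at 166.2 kb, EMX2 at 166.9 kb, SOX17 at 309.2 kb and PGR at 785.5 kb. Most neighbours in this order overlapped: FOXO1 (45.8 to 104.9 kb) with WT1 (61.1 to 148.2 kb), WT1 with ESR1 (136.6 to 238.2 kb), ESR1 with EMX2 (1.43 to 166.9 kb), and SOX17 (304.3 to 323.2 kb) with PGR (252.9 to 982.3 kb). PAX8 (4.26 to 158.9 kb) reached into the range of FOXO1 through Empty replicate 1 and DDX4, and MSX1 (0.131 to 178.4 kb) into that of PAX8 through DBDmut. EMX2 and SOX17 did not overlap in these 7 libraries. The FOXO1, WT1 and EMX2 medians are distances to elements beyond 100 kb that were acetylated in all 7 libraries. The next protein-coding genes upstream by order in RefSeq are MRPS31, EIF3M and PDZD8. Whether this acetylation is tied to the members was not tested.

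HA, the tag read in DDX4 cells, gave 3 of its 5390 peaks in the windows. They lay 65.6 kb upstream of PAX8 (fold 4.52, pileup 4), 62.7 kb downstream of EMX2 and 27.1 kb downstream of FOXO1 (fold 3.62 and pileup 3 each). None met a peak of another antibody (3 of 3), where 16.0% of HA peaks in the genome met none. The HA library was the shallowest at 0.463 fragments per kb, and no untagged control for HA was analysed here, so these 3 peaks are given as values only.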

How the data were processed

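CUT&Tag libraries of AN3CA cells were made for SMARCA4, SMARCC1, H3K27ac and HA, and titles gave each sample's construct and antibody. The authors deposited 1 list of peaks per library in a 10-column layout. The submitters' processing notes name build hg19 and bcl2fastq without a version. The aligner, the peak caller, any control library and the handling of duplicate fragments were not given in the sources used here.

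The fold enrichment deposited by the authors is the ratio of summit pileup plus 1 to local background plus 1. Each peak also has -log10 values of its p and q deposited by the authors, whose score column was not analysed. Whole pileups were recovered from fold and p, taken as a Poisson tail, in at least 99.68% of each library's peaks (within 0.001 in -log10 p). The lowest background over the shortest peak length gave the depth in fragments per kb, which serves to compare libraries and is not a total.

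Only chromosomes 1 to 22 and X were kept. A BAF site is a WT SMARCA4 peak that shares at least 1 bp with a WT SMARCC1 peak. A gained site meets neither subunit's peaks in the Empty replicates. Members were the 8 genes of the rule. Sites named were the state within 1 kb of the start, the WT BAF sites, the strongest and gained WT H3K27ac peaks, the shared Empty peaks absent from WT and the HA peaks, and all sites of a kind with 5 or fewer in a window. Other sites were named after their values were seen. Members and lists were chosen with earlier results of these data known. A list of other Müllerian genes and a search for genes of like pattern were not used here, since they need an hg19 gene table. Upstream and downstream follow the strand in RefSeq's table. SOX17 has no side given.

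Alternatives were peaks of -log10 q of at least 5, lists of equal length, windows of 50 and 200 kb, summits within 250 bp, an overlap of 50% of the shorter peak, 1 subunit alone, leaving out each Empty replicate, 5 kb from the start, and, chosen after seeing the data, only libraries of the stamp of Empty replicate 1. Exact permutation tests and Wilson intervals were computed in Python 3.11.15 (pandas 2.3.3, scipy 1.17.1, numpy 2.4.6), and matplotlib 3.10.9 drew the figures. Code was tested on simulated data.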

Additional observations from a re-analysis of the deposited data

How the results depend on the processing

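Of 136 alternative values, 117 neither reversed nor crossed a threshold and, for counts and shares, stayed within 1.5 times the reported count or inside its interval. The total is no measure of stability, since every share found in a mutant was among the 117. Those shares rest on few sites with wide intervals, so they could hardly fail. The H3K27ac share of DBDmut, 0.0%, counted as unchanged at 28.6% with lists of equal length. Sizes still varied: the H3K27ac difference was -2.2 with -log10 q of at least 5, and the SMARCC1 difference was 0.0 there and with equal lists. The H3K27ac difference of constructs minus Empty (-13.8 peaks) turned to 2.1 with lists of equal length (exact permutation p = 0.476) and to 5.5 among libraries of 1 stamp, and ranged from -31.8 to 4.2 when an Empty replicate was left out. The SMARCC1 difference (1.0) turned to -0.2 with a window of 50 kb. Leaving out an Empty replicate gave 0.2 to 1.2 for SMARCA4 and 1.0 to 1.0 for SMARCC1.

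Gained BAF sites, 2 in all, numbered 0 with lists of equal length, 1 with a window of 50 kb, 1 with 50% overlap and 6 with SMARCC1 peaks alone. They stayed at 2 to 2 without either Empty replicate. Gained H3K27ac peaks (6) numbered 2 within 50 kb, 14 within 200 kb and 6 to 9 with an Empty replicate left out. Shared Empty peaks absent from WT (1) numbered 0 within 50 kb, 5 within 200 kb and 2 with 50% overlap. With an Empty replicate left out, sharing was not asked for. The count was then 1 of 2 window peaks of replicate 1 and 34 of 38 of replicate 2. Starts with H3K27ac within 1 kb, 1 in WT, numbered 0 with -log10 q of at least 5, 0 with equal lists and 2 within 5 kb; within 5 kb Empty replicate 2 and delIDR1 also had 2. The cause of these shifts was not tested. The shares kept had no value with equal lists, since no gained site was left.

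No paired analysis was possible because the labels give replicate numbers to Empty alone. Each construct is 1 library per antibody, SMARCA4 peaks rest on as few as 3 fragments, and Empty replicate 2 was the deepest H3K27ac library. A site missing from a shallower list was not called at that depth.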

Other observations

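Beyond the windows, from 100 to 200 kb, acetylation called in all 7 libraries lay upstream of FOXO1, EMX2 and WT1. The FOXO1 element, 104.2 to 105.0 kb upstream, had H3K27ac folds of 5.62 to 10.7 and SMARCC1 in 5 libraries, and the next protein-coding gene upstream by order in RefSeq is MRPS31. The EMX2 element, 166.4 to 168.7 kb upstream, had folds of 3.20 to 8.33, and PDZD8 is the next gene there. The WT1 element, 147.7 to 149.0 kb upstream, had folds of 5.59 to 14.4, SMARCA4 in 4 libraries and SMARCC1 in 6, and EIF3M is the next gene there. For PAX8 an element 158.6 to 159.3 kb upstream was acetylated in 6 of 7 libraries, and ZNG1B is the next gene there. Empty replicate 1 and DDX4 were included, where the window itself held no H3K27ac in those libraries. Whether these elements belong to the members or to the next genes was not tested. SOX17 and PGR had no H3K27ac peak in this range in any library.

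Other sites in the range were seen in constructs but not in Empty. FOXO1 had H3K27ac 110.5 to 111.0 kb upstream in WT, DBDmut, delIDR1 and CBR, with folds of 5.33 to 6.82. EMX2 had H3K27ac 199.3 to 199.9 kb upstream in WT, DBDmut and delIDR1, with folds of 6.48 to 8.93. MSX1 had H3K27ac 178.2 to 179.3 kb downstream in WT, DBDmut, delIDR1 and DDX4, with folds of 5.36 to 9.49. In the other direction, ESR1 had H3K27ac 175.6 to 175.9 kb upstream in both Empty replicates and in no construct, with folds of 3.98 to 7.47. With windows of 200 kb, 14 of 25 WT H3K27ac peaks (56.0%) were absent from both Empty replicates, against 40.0% over the genome. Of 13 peaks shared by the Empty replicates there, 5 (38.5%) were absent from WT, against 20.2% over the genome. The named sites were chosen after their values were seen and were not tested.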
